A study of Mus musculus with 2 samples.

Results

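Heat shock chaperone genes were described in single cells of the basolateral amygdala of adult C57BL/6 mice, 10 of 25120 genes with a column in either deposited table. They were a list of gene names chosen with earlier results of these data known. Hspa1a, Hspa1b, Hspb1, Dnajb1, Hsph1 and Hsp90aa1 were taken here as the inducible members. Hspa8, Hsp90ab1, Hspd1 and Hspe1 were taken as the constitutive ones. All 10 had a column in both tables. Hspd1 and Hspe1 encode a chaperonin of the mitochondrial matrix and its lid, so the heading of cytosolic chaperones does not hold for that pair. One library came from mice given FGF21 at 1 mg/kg once a day for 3 days, and the other from mice given vehicle on the same schedule. Each was 1 pool of tissue from 3 mice, sorted for tdTomato and for a viability dye. The sample titles name KLB, the co-receptor of FGF21, and the sources used here do not say how the reporter was tied to it.

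With 1 library per treatment there is no replicate and no test. A difference below is one between 2 libraries, and treatment cannot be told apart from the pool of mice, the dissociation or the sequencing run. The FGF21 library held 2455 barcodes and 14585503 UMIs (unique molecular identifiers, each counted as 1 captured message), and the vehicle library 2925 barcodes and 11130580 UMIs. After filtering, 1935 FGF21 cells with a median of 6838 UMIs and 2337 vehicle cells with a median of 4232 UMIs were used. Among used cells, 6 barcodes were shared by the libraries. Tissue was digested with a protease for 30 minutes at 37 °C in 45 µM actinomycin D, an inhibitor of transcription, in both libraries. Cells were clustered without the chaperones and without 9 related gene lists, and clusters were named from marker genes. Levels are given in CPM, a gene's UMIs per 1000000 UMIs of a class or library, with exact Poisson intervals, and ratios of levels are FGF21 over vehicle with exact conditional binomial intervals. All intervals are 95% and cover counting error only.

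Heat shock proteins bind unfolded chains and keep them from aggregating. When unfolded protein accumulates, the factor HSF1 is released from its chaperone partners, forms trimers and binds heat shock elements, which are runs of alternating inverted GAA and TTC units. The inducible HSP70 genes are the classical targets. HSC70, from Hspa8, and HSP90 beta, from Hsp90ab1, fold proteins in unstressed cells. In brain, HSP70 genes are known to respond to tissue handling as well as to injury.

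Stretches of 300 bases around annotated starts of 5 genes are shown. The near-identical HSP70 pair stands there beside members with other numbers of letter matches to alternating GAA and TTC units. Each stretch spans the start, with most of it upstream. They come from RefSeq on GRCm38.p6 and are written 5′ to 3′. Capitals mark matches to GAANNTTC or TTCNNGAA, the form with 2 alternating units, each of which reads the same on both strands. Matches can overlap each other.
Hspa1a, chr17:34972107-34972406, minus strand: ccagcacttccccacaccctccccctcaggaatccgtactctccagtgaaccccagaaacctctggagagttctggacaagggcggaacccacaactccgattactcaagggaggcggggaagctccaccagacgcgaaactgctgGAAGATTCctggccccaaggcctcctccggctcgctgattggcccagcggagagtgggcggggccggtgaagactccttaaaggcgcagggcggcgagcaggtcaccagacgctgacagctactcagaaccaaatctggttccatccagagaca
Hspa1b, chr17:34959189-34959488, minus strand: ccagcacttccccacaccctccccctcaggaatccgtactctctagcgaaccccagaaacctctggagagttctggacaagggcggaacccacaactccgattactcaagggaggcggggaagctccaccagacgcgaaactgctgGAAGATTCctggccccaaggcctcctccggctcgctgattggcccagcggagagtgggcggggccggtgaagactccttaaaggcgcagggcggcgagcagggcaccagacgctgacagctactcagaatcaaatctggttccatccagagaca
Hspb1, chr5:135887669-135887968, plus strand: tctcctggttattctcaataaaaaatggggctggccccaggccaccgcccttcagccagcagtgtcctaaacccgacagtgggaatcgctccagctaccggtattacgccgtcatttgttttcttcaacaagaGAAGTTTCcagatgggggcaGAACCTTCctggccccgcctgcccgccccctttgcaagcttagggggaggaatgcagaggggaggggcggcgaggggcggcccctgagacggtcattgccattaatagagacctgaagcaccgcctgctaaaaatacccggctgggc
Hspe1, chr1:55087898-55088197, plus strand: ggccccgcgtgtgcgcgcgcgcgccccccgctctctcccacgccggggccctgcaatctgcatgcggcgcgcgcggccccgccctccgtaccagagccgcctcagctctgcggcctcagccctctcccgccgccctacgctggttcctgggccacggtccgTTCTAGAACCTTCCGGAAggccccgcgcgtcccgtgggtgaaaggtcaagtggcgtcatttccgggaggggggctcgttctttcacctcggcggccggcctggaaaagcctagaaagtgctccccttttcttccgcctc
Dnajb1, first start, chr8:83607925-83608224, plus strand: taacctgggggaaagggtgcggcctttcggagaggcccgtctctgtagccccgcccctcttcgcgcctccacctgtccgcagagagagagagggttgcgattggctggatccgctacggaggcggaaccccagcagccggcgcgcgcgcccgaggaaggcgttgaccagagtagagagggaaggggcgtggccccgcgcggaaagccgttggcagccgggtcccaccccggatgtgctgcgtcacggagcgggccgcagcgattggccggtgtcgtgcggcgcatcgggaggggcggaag
Of 32851 promoter windows of this length, 15.1% held at least 1 match to the form with 2 units. The form with 3 alternating units, which continues either match by 1 more unit and was searched on both strands, was in 0.603%. It overlaps matches to the shorter form. The Hspa1a and Hspa1b windows were identical at 296 of 300 positions and each held 1 match to the form with 2 units, 104 bases before the start. The Hspb1 window held 2 matches. The Hspe1 window held 3, which made 2 matches to the form with 3 units and which also lie in a window of Hspd1, transcribed the other way. The 2 Hsph1 windows overlap and hold the same match to the form with 3 units, which lies after the annotated start in each. Neither Dnajb1 window held a match to the form with 2 units. A match describes the letters in a window, and no match says only that they are not in it.

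Hspa1a (chr17:34969190-34972156) and Hspa1b (chr17:34956436-34959238) are genes of 1 exon on the minus strand of GRCm38, 9.95 kb apart. Their coding sequences were identical at 99.5% of aligned positions and their 3′ UTRs at 51.4%. The authors' counting could have split reads between them, so each is given singly and as a sum, called the HSP70 pair here. Hspa1a made up 60.2% (50.5% to 69.3%) of the pair's UMIs in used FGF21 cells and 49.9% (45.3% to 54.4%) in used vehicle cells.

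The HSP70 pair and Hspb1, the small heat shock protein HSP27, were the members farthest apart between the libraries. Over all used cells the pair stood at 8.02 CPM (113 UMIs) in the FGF21 library and 45.6 (483 UMIs) in the vehicle library, a ratio of 0.176 (0.142 to 0.216). Hspb1 stood at 14.9 CPM in the FGF21 library and 90.8 in the vehicle library, a ratio of 0.164 (0.141 to 0.191). Hsph1, an HSP110 exchange factor for HSP70, had a ratio of 0.659 (0.612 to 0.709). Dnajb1, the HSP40 that hands substrates to HSP70, stood at 61.4 in the FGF21 library and 60.7 in the vehicle library, a ratio of 1.01 (0.913 to 1.12). Hsp90aa1, the inducible HSP90 alpha, had a ratio of 1.02 (0.985 to 1.05).

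Of the constitutive members, Hspa8 had a ratio of 0.777 (0.754 to 0.800) and Hsp90ab1 1.05 (1.02 to 1.07). Hspd1, the mitochondrial chaperonin HSP60, had 0.927 (0.866 to 0.992), and Hspe1, its lid HSP10, 1.04 (0.982 to 1.11). These values mix classes whose cell numbers differ between the libraries, so the classes are given one by one.

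**Figure D1:**
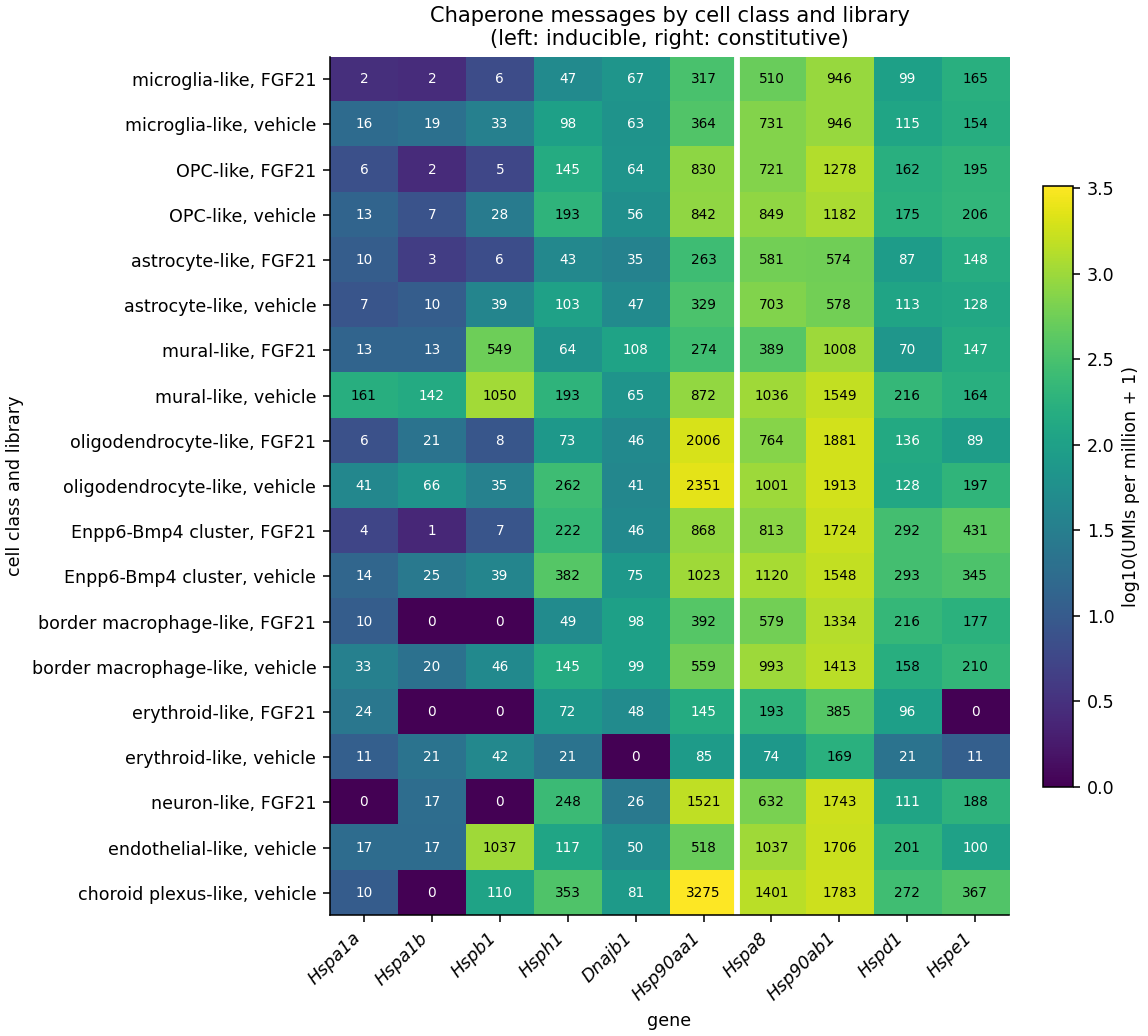
Level of each chaperone, in CPM printed in the cells and as colour on a log scale, by cell class and library. The HSP70 pair is highest in vehicle mural-like cells, where Hspa1a reads 161 and Hspa1b 142, and Hspb1 is highest in mural-like cells of both libraries and in vehicle endothelial-like cells.

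Microglia-like cells gave the largest counts, 886 cells in the FGF21 library and 1409 in the vehicle library. The pair had 21 UMIs in FGF21 microglia-like cells, or 3.80 (2.35 to 5.81) CPM, against 205 UMIs and 35.3 (30.6 to 40.5) CPM in vehicle ones. The ratio was 0.108 (0.0653 to 0.169). Both genes were low in the FGF21 cells, where Hspa1a had 11 UMIs against 94 in vehicle cells. Hspa1b had 10 UMIs in FGF21 cells against 111 in vehicle cells.

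Hspb1 was at 5.61 CPM in FGF21 microglia-like cells and 33.2 in vehicle ones, a ratio of 0.169 (0.112 to 0.248). Hsph1 was at 47.3 in FGF21 cells and 98.2 in vehicle cells, a ratio of 0.481 (0.414 to 0.558). Dnajb1 had 369 UMIs in FGF21 cells and 368 in vehicle cells, and its ratio of 1.05 (0.910 to 1.22) had an interval that included 1. Hsp90aa1 had a ratio of 0.868 (0.815 to 0.926), which moved past 1.5-fold, to 0.542, when the free RNA estimated below was subtracted.

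Among the constitutive members in these cells, Hspa8 had the lowest ratio, 0.697 (0.665 to 0.731), with 509.9 CPM in FGF21 cells and 731 in vehicle cells. Hsp90ab1 had 1.00 (0.962 to 1.04), Hspd1 0.860 (0.766 to 0.964) and Hspe1 1.07 (0.976 to 1.18). In all, 4 of 10 members had ratios at least 1.5-fold below 1 and 0 had ratios that far above it. The 4 were Hspa1a, Hspa1b, Hspb1 and Hsph1, among 6 inducible members, and 0 of 4 constitutive members passed that fold. With free RNA subtracted, Hsp90aa1 and the constitutive Hspa8, at 0.638, passed it too, which made 5 of 6 inducible and 1 of 4 constitutive members. Of the 11361 genes with at least 50 UMIs in the class, 573 genes (5.04%) were at least 1.5-fold lower, and 1367 genes were that much higher. The median log2 ratio was -0.37 over the members and 0.03 over those genes. Because the members were chosen with earlier results of these data known, such shares, here and below, describe them and test no enrichment.

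Most cells of this class lay in different clusters in the 2 libraries. One cluster held 862 FGF21 cells and 11 vehicle cells of the class, and another held 24 FGF21 cells and 1398 vehicle cells. In the second, the FGF21 cells had 0 UMIs of the pair among 50133 UMIs, and the interval of the ratio ran up to 2.16. The part of this split in the ratios was not tested. Among cells with at most 5% mitochondrial UMIs, the pair stood at 5.70 CPM in FGF21 cells and 36.6 in vehicle cells. Among those with 5% to 10% it stood at 2.84 in FGF21 cells and 34.3 in vehicle cells.

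Messages free in the suspension give UMIs in cells that do not make them, and bear on low counts. From 14 pairs of a class and another class's markers, free RNA was estimated at 35.5% of a gene's mean level in the FGF21 library (30.1% to 55.3% over the pairs) and 30.7% in the vehicle library (23.6% to 41.3%). By that estimate it would give 74.9% of the pair's UMIs in FGF21 microglia-like cells and 39.7% in vehicle ones. For Hspb1 it would give 94.3% in FGF21 cells and 83.9% in vehicle cells. For Hsp90aa1 it would give 73.4% in FGF21 cells and 54.2% in vehicle cells. The microglia-like level of Hspb1 was thus near this background in both libraries. With free RNA subtracted, the log2 ratio of the pair was -4.25, against -3.18 without.

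**Figure D2:**
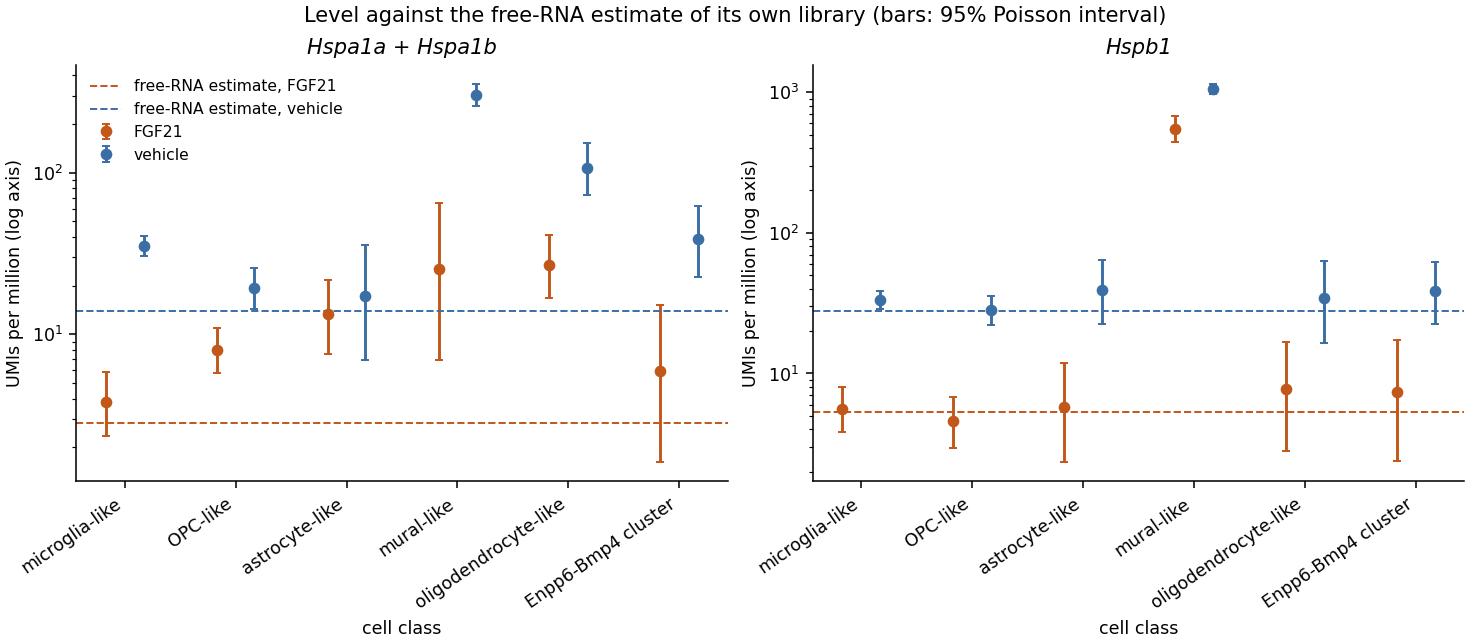
CPM on a log axis of the HSP70 pair and of Hspb1 in 6 cell classes, FGF21 left of vehicle, with Poisson intervals and dashed lines at each library's free-RNA estimate. Mural-like cells stand highest for the pair in the vehicle library, at 302, and for Hspb1 in both libraries, at 549 in FGF21 cells and 1049.9 in vehicle cells.

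The pair was found in few cells. Without thinning, 1.69% (0.951% to 2.78%) of FGF21 microglia-like cells and 11.1% (9.48% to 12.8%) of vehicle ones held a UMI of it, at median depths of 6024 UMIs in FGF21 cells and 4175 in vehicle cells. Thinned to 2000 UMIs a cell, with shallower cells left out, it was 6 of 865 (0.694%) of FGF21 cells and 75 of 1342 (5.59%) of vehicle cells. Erythroid-like barcodes, taken as cells with little transcription, held it in 5.00% (0.127% to 24.9%) in the FGF21 library and 6.52% (1.37% to 17.9%) in the vehicle library, at median depths of 2256 UMIs in FGF21 and 1989 in vehicle. In both libraries the interval for microglia-like cells overlapped that for the few erythroid-like barcodes, which were shallower, so these shares do not set the pair apart from background.

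In vehicle microglia-like cells, the 5% of cells with the most UMIs of the pair held 58.5% of its 205 UMIs, with at most 7 in a cell. Such a share depends on how few UMIs there are. It was 47.15% for Hspb1, on 193 UMIs, and 44.3% for Dnajb1, on 368. After thinning, 26.7% (17.1% to 38.1%) of vehicle cells with the pair also held Hsph1, against 14.5% (12.6% to 16.6%) of those without it. Hspa8 was held by 82.7% (72.2% to 90.4%) of cells with the pair and 72.4% (69.8% to 74.8%) of those without. Of the 8 other members, Hsph1 alone had intervals that did not overlap, and Hspe1 lay the other way, at 20.0% (11.6% to 30.8%) with the pair and 25.3% (22.9% to 27.7%) without. Cells of 1 library are not replicates, and these shares describe that library.

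Oligodendrocyte precursor-like cells numbered 586 in the FGF21 library and 373 in the vehicle library. One cluster held 509 FGF21 and 27 vehicle cells of the class, and another 67 FGF21 and 343 vehicle cells. Hsp90aa1 stood at 829.7 CPM in FGF21 cells and 842 in vehicle cells. Within those clusters its ratio was 0.848 (0.736 to 0.982) in the first and 0.861 (0.747 to 0.989) in the second. Hsph1 had a ratio of 0.753 (0.670 to 0.846), Hspa8 0.849 (0.805 to 0.896) and Hsp90ab1 1.08 (1.04 to 1.13). Hsp90ab1 had 0.898 (0.799 to 1.01) within the first cluster and 1.11 (0.994 to 1.23) within the second. Dnajb1 was at 64.1 in FGF21 cells and 55.8 in vehicle cells, a ratio of 1.15 (0.939 to 1.41). Hspa1a, Hspa1b and Hspb1 were at least 1.5-fold lower, 3 of 10 members and 2 of the 9 with at least 50 UMIs. Of 11482 genes with that many UMIs, 4.88% were that much lower and 5.81% that much higher, and the median log2 ratio was -0.17 over the members and -0.01 over those genes.

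The pair had 42 UMIs in FGF21 precursor-like cells and 48 in vehicle ones, a ratio of 0.415 (0.268 to 0.641). Free RNA was estimated at 35.4% of them in FGF21 cells and 72.2% in vehicle cells. With it subtracted the log2 ratio was 0.02, against -1.27 without, so the direction did not hold. For Hspb1 the estimate was 115% in FGF21 cells and 98.5% in vehicle cells. In the first of the clusters, the pair had 37 UMIs in FGF21 cells and 2 in vehicle cells, a ratio of 0.813 (0.210 to 6.96). In the second, it had 4 UMIs in FGF21 cells and 46 in vehicle cells, a ratio of 0.606 (0.159 to 1.66). Both intervals included 1.

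In astrocyte-like cells, 192 in the FGF21 library and 99 in the vehicle library, the pair had 16 UMIs in FGF21 cells and 7 in vehicle cells. The ratio was 0.771 (0.300 to 2.22), and a difference was not detectable at this depth. Hsph1 was at 43.1 CPM in FGF21 cells and 103 in vehicle cells, a ratio of 0.418 (0.273 to 0.643), and Hspa8 had 0.826 (0.719 to 0.951). Hspa1b, Hspb1 and Hsph1 were at least 1.5-fold lower, 3 of 10 members and 1, Hsph1, of the 7 with at least 50 UMIs. Free RNA was estimated at 80.05% of Hsph1 UMIs in FGF21 cells and 43.9% in vehicle cells, and the subtracted ratio was 0.160. For Hspb1 the estimate was 91.2% in FGF21 cells and 70.9% in vehicle cells. Of 6128 genes with that many UMIs, 8.50% were that much lower and 10.7% that much higher. The median log2 ratio was -0.36 over the members and 0.00 over those genes.

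Mural-like cells, named from markers of pericytes and vascular smooth muscle, numbered 40 in the FGF21 library and 182 in the vehicle library. The pair had 4 UMIs in FGF21 mural-like cells, or 25.5 (6.95 to 65.3) CPM, against 158 UMIs and 302 (257 to 353) in vehicle ones. The ratio was 0.0845 (0.0227 to 0.221), with free RNA estimated at 11.2% of the UMIs in FGF21 cells and 4.64% in vehicle cells. A UMI of the pair was in 7.50% (1.57% to 20.4%) of FGF21 mural-like cells and 40.7% (33.5% to 48.2%) of vehicle ones, at median depths of 3742 UMIs in FGF21 cells and 2771 in vehicle cells. Hspb1 stood at 549 CPM in FGF21 cells and 1049.9 in vehicle cells, a ratio of 0.523 (0.411 to 0.657).

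Of the 4 constitutive members, 3 were at least 1.5-fold lower here as well. The fourth, Hspe1, had a ratio of 0.892 (0.537 to 1.43), an interval that included 1. Hspa8 was at 389 in FGF21 mural-like cells and 1036 in vehicle ones, a ratio of 0.375 (0.283 to 0.490), and Hspd1 had 0.325 (0.158 to 0.603). Hsp90ab1 had 0.651 (0.545 to 0.773), and the inducible Hsp90aa1 had 0.315 (0.225 to 0.431). Free RNA was estimated at 84.7% of Hsp90aa1 UMIs in FGF21 mural-like cells and 22.7% in vehicle ones. It was estimated at 68.4% of Hspd1 UMIs in FGF21 cells and 20.7% in vehicle cells, and at 57.4% of Hspa8 UMIs in FGF21 cells and 24.0% in vehicle cells. With it subtracted, the ratios were 0.0669 for Hsp90aa1, 0.139 for Hspd1 and 0.226 for Hspa8. Dnajb1 had 17 UMIs in FGF21 cells and 34 in vehicle cells, and the interval of its ratio, 1.67 (0.874 to 3.07), included 1. In all, 8 of 10 members were at least 1.5-fold lower and 1, Dnajb1, that much higher. Of 3035 genes with at least 50 UMIs, 13.5% were that much lower and 9.82% that much higher. The median log2 ratio was -1.47 over the members and -0.07 over those genes.

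The makeup of the mural-like class differed between the libraries. Acta2, a smooth muscle actin, stood at 2718 CPM in FGF21 mural-like cells and 207 in vehicle ones. Myh11 stood at 663 in FGF21 cells and 113 in vehicle cells, and Tagln at 708 in FGF21 cells and 49.7 in vehicle cells. The pericyte markers Kcnj8 and Abcc9 ran the other way, with Kcnj8 at 740.0 in FGF21 cells and 1188 in vehicle cells. A split by these messages was chosen after the data were seen. In the 28 FGF21 and 147 vehicle cells without a UMI of Acta2, Myh11 or Tagln, the ratio was 0.125 (0.0337 to 0.329) for the pair, 0.494 (0.359 to 0.668) for Hspb1 and 0.430 (0.305 to 0.592) for Hspa8. Dnajb1 stood there at 162 in FGF21 cells and 68.4 in vehicle cells, a ratio of 2.37 (1.20 to 4.53).

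**Figure D3:**
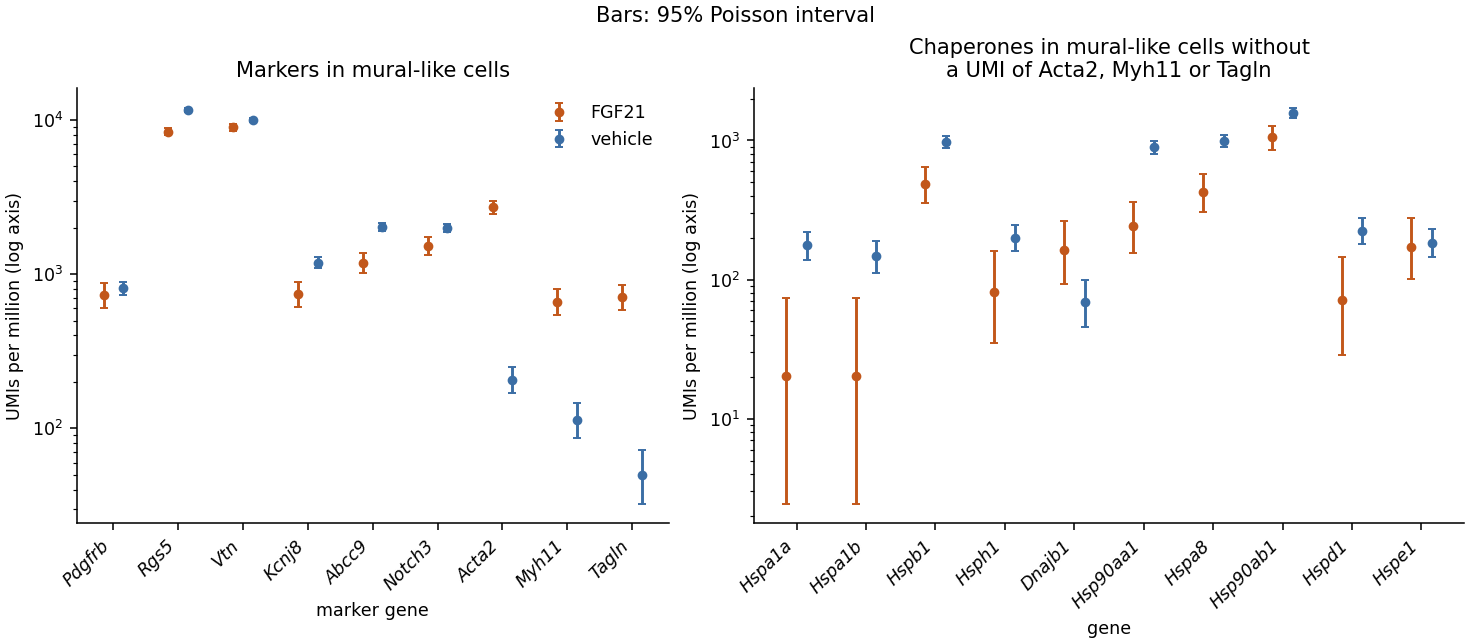
CPM on log axes, FGF21 left of vehicle, of mural marker genes in mural-like cells and of the chaperones in mural-like cells without a UMI of Acta2, Myh11 or Tagln, with Poisson intervals. Acta2, at 2718 in FGF21 cells and 207 in vehicle cells, is higher in FGF21 cells, as are Myh11 and Tagln, while Hspa8 and Hsp90aa1 are lower in them.

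Oligodendrocyte-like cells numbered 82 in the FGF21 library and 41 in the vehicle library. They carried the most Hsp90aa1 of the 6 classes, 2006 CPM in FGF21 cells and 2351 in vehicle cells. The pair had 21 UMIs, 27.0 CPM, in FGF21 cells and 31 UMIs, 107 CPM, in vehicle cells, a ratio of 0.252 (0.138 to 0.453). Hsph1 had a ratio of 0.279 (0.195 to 0.399) and Hspe1 0.451 (0.313 to 0.652), while Hspd1 had 1.07 (0.727 to 1.60). Free RNA was estimated at 74.2% of Hspe1 UMIs in FGF21 cells and 27.8% in vehicle cells. For Hsph1 the estimate was 47.1% in FGF21 cells and 17.3% in vehicle cells. In all, 5 of 10 members were at least 1.5-fold lower, and 2 of the 6 with at least 50 UMIs, beside 9.38% of 3997 genes that much lower and 9.31% that much higher.

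A cluster led by Enpp6 and Bmp4, left unnamed, held 38 cells in each library. Of the 6 classes it carried the most Hspe1, 431 CPM in FGF21 cells and 345 in vehicle cells, a ratio of 1.25 (1.02 to 1.53). Hsph1 was at 222 in FGF21 cells and 382 in vehicle cells, a ratio of 0.582 (0.464 to 0.730). The pair had 4 UMIs in FGF21 cells and 17 in vehicle cells. In all, 5 of 10 members were at least 1.5-fold lower, and 2 of the 7 with at least 50 UMIs, beside 7.47% of 4990 genes that much lower and 7.80% that much higher. Hspb1, among the 5, had 5 UMIs in FGF21 cells and 17 in vehicle cells. Free RNA was estimated at 71.5% of them in FGF21 cells and 72.2% in vehicle cells. For the pair the estimate was 48.1% in FGF21 cells and 36.3% in vehicle cells.

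**Figure D4:**
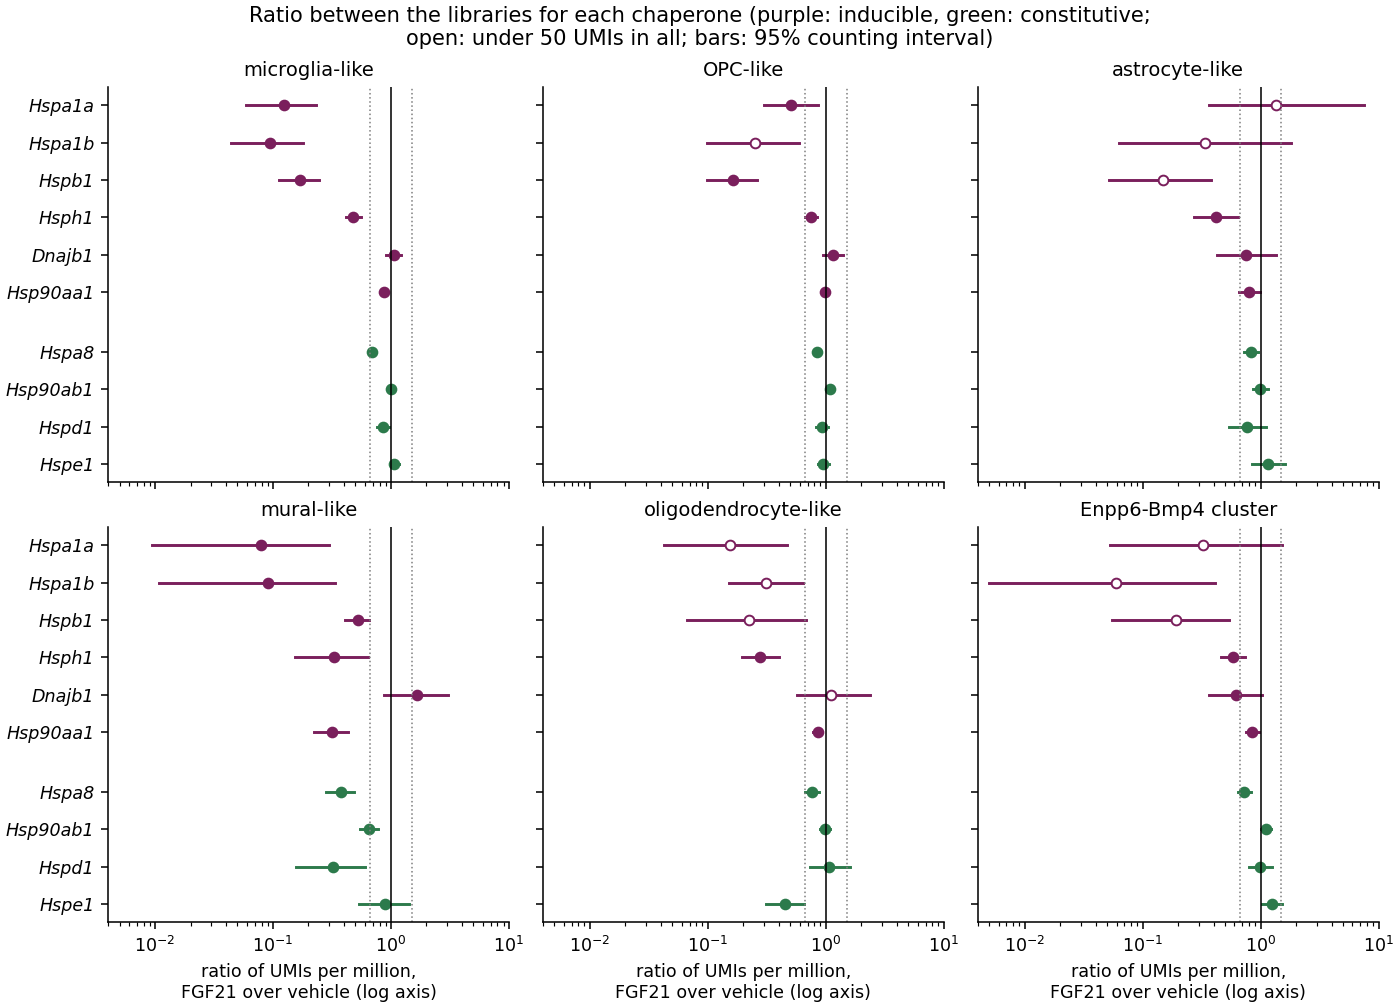
Ratio of CPM, FGF21 over vehicle, on a log axis for each chaperone in 6 cell classes, with 95% counting intervals. In microglia-like cells Hsp90ab1 and Dnajb1 lie at 1.00 and 1.05, and Hspa1a and Hspa1b at 0.123 and 0.0947.

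**Figure D5:**
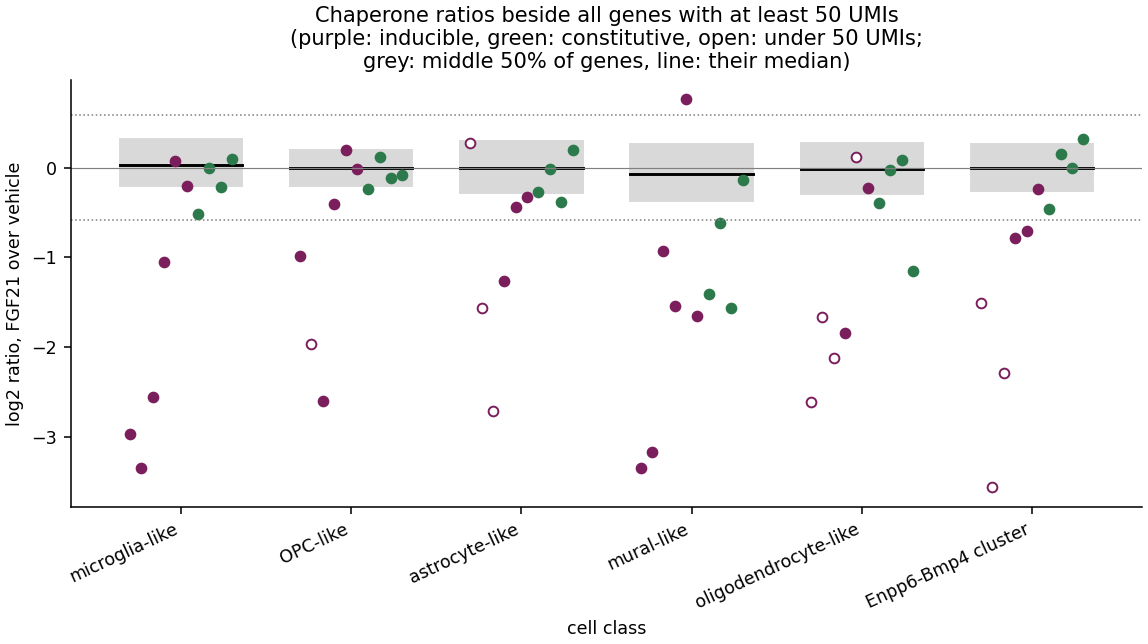
Log2 ratio, FGF21 over vehicle, of the 10 chaperones in each class, beside the quartiles and median of genes with at least 50 UMIs. In microglia-like cells the members' median is -0.37 and that of all such genes 0.03, and in mural-like cells -1.47 and -0.07.

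The interval of the Dnajb1 ratio included 1 in each of the 6 classes, from 0.612 (0.363 to 1.03) in the Enpp6-Bmp4 cluster, on 31 UMIs in FGF21 cells and 33 in vehicle cells, to 1.67 in mural-like cells. Hsp90aa1 was below 1 over its whole interval in 5 of the 6, and in precursor-like cells its ratio was 0.986 (0.935 to 1.04). Within both large precursor-like clusters, taken singly, its interval also lay below 1, at 0.848 (0.736 to 0.982) and 0.861 (0.747 to 0.989). Hsp90ab1 had intervals that included 1 in microglia-like, astrocyte-like and oligodendrocyte-like cells, with 574 CPM in FGF21 astrocyte-like cells and 578 in vehicle ones. Hspd1 was below 1 over its whole interval in microglia-like and mural-like cells alone among the 6 classes taken whole. In the precursor-like cluster of 67 FGF21 and 343 vehicle cells it also was, at 0.640 (0.442 to 0.902). In the cluster of 509 FGF21 and 27 vehicle cells it had 0.882 (0.640 to 1.25). The Hspd1 and Hspe1 genes overlap head to head at their starts, so reads of that stretch could be counted for either.

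Across classes with at least 20 cells in a library, Hspb1 stood highest in vehicle mural-like and vehicle endothelial-like cells, at 1037 CPM in the second, and these neighbours had overlapping intervals. FGF21 mural-like cells, at 549, and vehicle choroid plexus-like cells, at 109.6, came next. Hsp90aa1 stood highest in vehicle choroid plexus-like cells, at 3275, and in FGF21 cells in the oligodendrocyte-like class. It made up 64.8% (61.8% to 67.6%) of the UMIs of both HSP90 genes in vehicle choroid plexus-like cells. That share was 25.1% (24.1% to 26.1%) in FGF21 microglia-like cells and 27.8% (26.8% to 28.8%) in vehicle ones. Of the UMIs of the pair and Hspa8 together, the pair made up 6.15% (1.70% to 15.0%) in FGF21 mural-like cells and 22.6% (19.5% to 25.9%) in vehicle ones. For Dnajb1, every neighbouring pair in the order of classes had overlapping intervals in both libraries.

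By Pearson correlation of log2(CPM + 10) over 19 profiles of a class in a library, the 5 genes most like Hspb1 among 11110 were Igfbp7, Itga1, Car4, Cavin1 and Gjc1, at 0.96 to 0.92. For the pair they were Casq2, Il34, Tbx3os1, Lamc3 and Pde4c, at 0.71 to 0.66. The profiles share 2 libraries and their depths.

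Other chaperone genes were counted where they had at least 50 UMIs. Their lists too were chosen with earlier results of these data known. Of all genes with that many UMIs, 5.04% were at least 1.5-fold lower in microglia-like cells, 4.88% in precursor-like cells and 8.50% in astrocyte-like cells. A count of 1 lower gene among 14 to 22 is thus near the background. At least 1.5-fold higher were 1367 of 11361 genes in microglia-like cells, 5.81% of genes in precursor-like cells and 10.7% in astrocyte-like cells. In microglia-like cells, 5 of 14 HSP90 system genes were at least 1.5-fold lower and 0 higher. Stip1, which links HSP70 to HSP90, had a ratio of 0.563 (0.493 to 0.642), and Chordc1, an HSP90 co-chaperone, 0.552 (0.493 to 0.617). Fkbp5 had 0.571 (0.523 to 0.624), Ahsa2 0.519 (0.416 to 0.646) and Unc45a 0.647 (0.372 to 1.10), the last with an interval that included 1. Of 22 HSP70 system genes 3 were at least 1.5-fold lower: Dnaja1, an HSP40, at 0.557 (0.518 to 0.599), Bag3, an HSP70 co-chaperone, at 0.641 (0.532 to 0.770), and Hspa12a at 0.517 (0.322 to 0.813). In precursor-like cells 3 of 14 HSP90 system genes were lower and 1 higher, with Stip1 at 0.639 (0.561 to 0.728), and 1 of 22 HSP70 system genes lower and 2 higher. In astrocyte-like cells it was 2 of 11 lower and 0 higher for the HSP90 system and 1 of 16 lower and 1 higher for the HSP70 system.

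Of 14 endoplasmic reticulum chaperones, 1 was at least 1.5-fold lower in microglia-like cells, 3 in precursor-like cells and 1 in astrocyte-like cells, and 0 were higher in any of these. The median log2 ratio of the list was -0.47 in microglia-like cells, -0.43 in precursor-like cells and -0.29 in astrocyte-like cells, beside 0.03, -0.01 and 0.00 over all genes with at least 50 UMIs. Hspa5, which encodes BiP, stood at 709 CPM in FGF21 microglia-like cells and 1240.2 in vehicle ones. In precursor-like cells it stood at 559 in FGF21 cells and 1107 in vehicle cells. The list of heat shock factors also held Hsbp1, which is not itself such a factor. Of that list, 0 of 3 genes in microglia-like cells, 0 of 3 in precursor-like cells and 0 of 2 in astrocyte-like cells were that far apart. Hsf1 had a ratio of 1.07 (0.846 to 1.36) in microglia-like cells. Of 4 genes listed by symbol as small heat shock proteins, 2 were higher in microglia-like cells. Cryab had a ratio of 1.55 (1.33 to 1.81), with free RNA estimated at 104% of its UMIs. Hspb11, listed for its symbol only, had 1.88 (1.12 to 3.24). In precursor-like cells 0 of 3 were that far apart, and in astrocyte-like cells 1 of 2 was lower.

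Among 13 chaperonin and prefoldin genes, 0 were that far apart in microglia-like or precursor-like cells, and 2 of 11 were lower and 1 higher in astrocyte-like cells. Of 11 mitochondrial quality control genes, 0 were that far apart in microglia-like cells and 2 were higher in precursor-like cells, and 2 of 6 were higher in astrocyte-like cells. Of 18 ubiquitin and proteasome genes, 0 were that far apart in microglia-like or precursor-like cells and 3 were higher in astrocyte-like cells. Of 13 immediate early genes in microglia-like cells, 3 were lower, among them Fos at 0.260 (0.151 to 0.428) and Jun at 0.514 (0.471 to 0.561), and 1 was higher. In precursor-like cells 2 of 9 were higher and 0 lower, and in astrocyte-like cells 1 of 5 was lower and 1 higher. These genes are known to respond to tissue dissociation, and their part in the chaperone ratios was not tested.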

How the data were processed

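RNA of single cells was captured on the BD Rhapsody platform. The deposited values are unnormalized UMI counts, corrected by the authors' pipeline for errors in the identifiers. Per the file headers it was Rhapsody Analysis Pipeline 1.9.1. The genome build was GRCm38, per the submitters' processing notes. No source used here gives the annotation or the cell calling settings. Barcodes under 500 UMIs, under 300 genes or over 25% mitochondrial UMIs were left out. Scrublet in scanpy 1.11.5 called 16 FGF21 and 17 vehicle doublets (0.767%), which were removed. Cells were clustered on 2000 variable genes and 30 principal components by the Leiden method at resolution 1.0, leaving out the members and the listed genes, and clusters were named from marker lists. UMIs were summed per class and library and scaled to CPM. Log2 ratios used a pseudocount of 0.5 UMIs. Ratios were given in classes with at least 30 cells in each library and levels with at least 20. The interval functions were tested on simulated data. All 10 members are described. From the other lists, the 3 genes with the most UMIs and those at least 1.5-fold apart in a main class could be named. The members and lists were chosen with earlier results of these data known.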

Additional observations from a re-analysis of the deposited data

Results flagged for a closer look

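In 3 comparisons the interval of a member's ratio, FGF21 over vehicle, lay above 1 in 1 class and below 1 in another, and these differences between classes were not tested. Hsp90ab1 had a ratio of 1.08 (1.04 to 1.13) in oligodendrocyte precursor-like cells and 1.11 (1.01 to 1.23) in the Enpp6-Bmp4 cluster, against 0.651 (0.545 to 0.773) in mural-like cells. Within the precursor-like cluster of 509 FGF21 and 27 vehicle cells it was 0.898 (0.799 to 1.01). In the cluster of 67 FGF21 and 343 vehicle cells it was 1.11 (0.994 to 1.23), so neither interval lay above 1. Hspe1 had a ratio of 1.25 (1.02 to 1.53) in the Enpp6-Bmp4 cluster, against 0.451 (0.313 to 0.652) in oligodendrocyte-like cells. Free RNA was estimated at 74.2% of Hspe1 UMIs in FGF21 oligodendrocyte-like cells and 27.8% in vehicle ones. In the Enpp6-Bmp4 cluster it was 15.3% in FGF21 cells and 15.8% in vehicle cells. With it subtracted, the ratios were 1.35 in that cluster and 0.173 in oligodendrocyte-like cells.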

How the results depend on the processing

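Subtracting the estimated free RNA moved the results most. With it, the log2 ratio of the HSP70 pair was -4.25 in microglia-like cells, 0.0243 in oligodendrocyte precursor-like cells, where it changed sign, and 1.40 in astrocyte-like cells, where the interval already included no difference. Hspa1b alone became 1.87 in precursor-like cells. Free RNA was estimated at 102% of its 17 vehicle UMIs there, so no vehicle level was left and the 1.87 rests on the pseudocount. The members at least 1.5-fold lower became 1 in precursor-like and 5 in astrocyte-like cells, and the members' median in microglia-like cells -0.77. The cause was not tested beyond the subtraction itself. With cells thinned to 2000 UMIs, the highest class was the same for 12 of 22 pairs of gene and library. Over all alternatives the pair's log2 ratio in microglia-like cells ran from -4.25 to -3.11, and the count of lower members there from 4 to 6, the 6 with free RNA subtracted. Small UMI counts limit the pair in every class, with 4 UMIs in FGF21 mural-like cells and 21 in FGF21 microglia-like cells. No paired analysis was possible because each treatment had 1 library.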
